A study of Mus musculus with 4 samples.

Results

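This section describes 7 mouse genes that p53 is known to switch on in apoptosis, Pidd1, Tnfrsf10b, Bbc3, Bax, Aen, Perp and Phlda3, in cultured sensory neurons that received human PROM1. The genes were taken by symbol from a table of 11258 genes, where they account for 8 of 14236 listed transcripts, Aen with 2 and the others with 1 each. All 7 passed the level filter (mean level 1 FPKM or more), as did 10108 genes in all. They are textbook p53 targets, and they were chosen by their values in these same libraries, that is by the PROM1 and control levels. The comparison of PROM1 with control cultures is therefore a description for them and carries no test.

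Neurons came from dorsal root ganglia (DRG) of mouse embryos at day 13.5 and were grown with nerve growth factor, and with fluorodeoxyuridine and uridine, which act against dividing cells. Fluorodeoxyuridine also blocks thymidylate synthase, and both groups received it. Lentivirus was added on day 2 in vitro, carrying human PROM1 (CD133, a cholesterol-binding membrane glycoprotein) in one group and the pLKO control vector in the other, and the labels place RNA on day 5. Each group had 2 libraries, which the series text calls biological duplicates; the sources used here name no genotype or strain of the mice, and the level of PROM1 was not analysed here.

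The protein p53, encoded by Trp53 in the mouse, is a transcription factor that accumulates after DNA damage and other stress. Its targets divide into genes that stop the cell cycle, repair DNA or feed back on p53, and genes that push a cell toward death. The latter act at the death receptors of the cell surface, at the outer membrane of mitochondria, where BAX is opened by BH3-only proteins such as PUMA, and in the nucleus. In mice, Bax is needed for the death of developing sensory neurons that lose nerve growth factor.

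Since all 7 genes had a higher mean level after PROM1, their promoters are shown around the best match to the p53 half-site consensus, a palindrome of 10 bases, so that one search covers both strands. RefSeq promoters, 250 bases before to 50 after each start in build GRCm38.p6, were at hand for 5 of the 7 genes (8 promoters), and not for Tnfrsf10b and Perp. The expression values were made on mm9, so these coordinates serve the sequences alone. The capitals mark the half-site in each line.
Aen, chr7:78895927-78895956, plus strand: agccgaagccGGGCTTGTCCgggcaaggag
Bax, chr7:45467080-45467109, minus strand: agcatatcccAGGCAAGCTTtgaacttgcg
Bbc3, chr7:16309486-16309515, plus strand: ctgcaagcccCGACTTGTCCccagccgcgg
Pidd1, chr7:141444055-141444084, minus strand: gaattcctacTGGCTAGCCCggaggggcgg

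The matches in Aen and Bax had no mismatch, and those in Bbc3 and Pidd1 had 1, outside the central C and G of the consensus. Relative to the annotated start of its own window, the Bax match spanned bases -201 to -192, the Bbc3 match shown -87 to -78 and the Pidd1 match -49 to -40. Bbc3 held 2 further matches, each also with 1 mismatch, in the window of another annotated start. Bax held 1 further match, with a single mismatch. The Aen match lay in the first exon, at bases 11 to 20 after 1 annotated start and at -121 to -112 of another. No match with up to 1 mismatch was found in the window of Phlda3, which says only that these letters are not there. Exact half-sites were present in 2 of these 5 genes (40.0%) and in 9.55% of 27025 genes in the promoter table. With 1 mismatch allowed they were in 4 of 5 and in 54.2% of all genes, so the looser match is common. For comparison, the exact half-site was in 9 of 21 genes of p53-dependent arrest, repair and feedback and in 4 of 15 other p53 targets of apoptosis. It was in 1 of 13 genes of the apoptosome and caspases and in 1 of 14 genes of the BCL-2 family. The members, among them Bax and Bbc3, were left out of these comparison lists. A match in letters is a description and does not show that p53 binds there.

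In the control cultures Bax had the highest level of the 7 genes per transcript length, 49.7 ± 22.9 FPKM (SD, n = 2), followed by Pidd1 at 45.6 ± 1.40 FPKM and Phlda3 at 38.5 ± 2.17 FPKM. FPKM is a level corrected for how long a transcript is and how much a library mapped. Aen followed at 11.0 ± 1.14 FPKM, Tnfrsf10b at 5.41 ± 2.13 FPKM, Bbc3 at 5.01 ± 0.761 FPKM and Perp at 3.61 ± 1.10 FPKM (SD, n = 2). The control libraries of Bax enclosed those of Pidd1, and those of Tnfrsf10b enclosed those of Bbc3, so these neighbours in the order were not separated beyond their spread. Of all 11258 genes, 94.4% had a lower mean level over the 4 libraries than Pidd1, and 43.1% a lower one than Perp. In the PROM1 cultures the order at the top was Pidd1 at 122.8 ± 13.5 FPKM, Phlda3 at 93.7 ± 16.8 FPKM and Bax at 66.5 ± 16.5 FPKM (SD, n = 2).

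**Figure D1:**
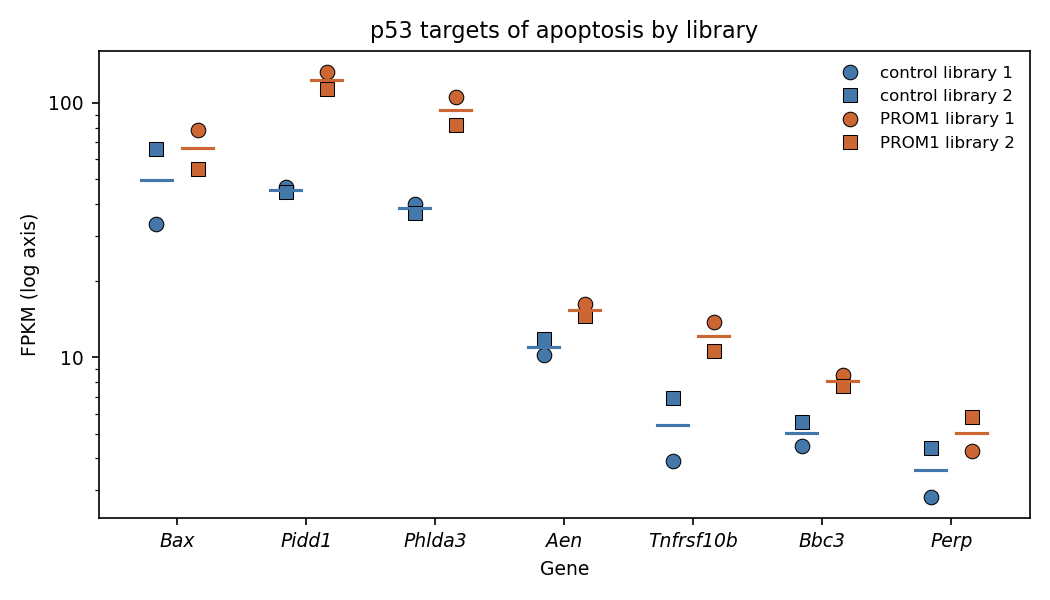
FPKM of each gene (log axis) in the control libraries (blue) and the PROM1 libraries (orange), with circles for library 1, squares for library 2 and a short line at each group mean. The groups are apart for Pidd1, Phlda3, Tnfrsf10b, Bbc3 and Aen, and overlap for Bax and Perp.

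For 5 of the 7 genes the PROM1 values were higher than either control value, which held for 16.5% of the 10108 tested genes. This contrast entered the choice of the genes, so nothing is read from that count. The median log2 change of the 7 genes on the log2(FPKM + 1) scale was 0.60, with a range from 0.40 for Perp to 1.41 for Pidd1, beside a median of -0.0286 over all tested genes. All 7 changes were above 0, as were those of 4701 of the 10108 genes. Control library 2 was above control library 1 in 5 of these genes, and without it the median change was 0.95. Whether more cells carry these transcripts or each cell holds more of them cannot be told apart in bulk RNA.

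The largest changes were in Pidd1 and Phlda3, whose products act away from the mitochondrial pore. Pidd1 encodes a death-domain scaffold that assembles caspase-2 in the PIDDosome and, with other partners, feeds NF-κB signalling after DNA damage. The control libraries held Pidd1 at 46.6 and 44.6 FPKM, the PROM1 libraries at 132.3 and 113.2 FPKM. Both PROM1 libraries were far above both controls, and libraries within a group differed by 1.04-fold in control and 1.17-fold in PROM1. The ratio of group means was 2.69, the log2 change was 1.41 ± 0.19 (SE), and 0.970% of the tested genes had a larger change. Libraries of the same number gave ratios of 2.84 and 2.54. Pidd1 is also the 1 member that the authors' deposited table marks as significant (q = 0.0395). That mark is carried by 0.204% of the table's transcripts, and 0.126% have q under 0.05. The mark comes from the same contrast that entered the choice of these genes, so nothing is read from it.

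Phlda3 encodes a small protein made of little more than a pleckstrin homology domain, which competes with the survival kinase AKT for membrane phosphoinositides. In control libraries Phlda3 measured 40.0 and 37.0 FPKM, compared with 105.6 and 81.8 FPKM after PROM1. The control libraries were close together, and the lower PROM1 library was still above both of them. The group means differed by 2.43-fold, with a log2 change of 1.25 ± 0.21 (SE). In the authors' deposited table Phlda3 was 2.32-fold higher, at 27.4 against 63.5 FPKM, and was not marked (q = 0.222). Both of these group values lie below all library values of their group, so they are not means of the library FPKM.

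At the cell surface, Tnfrsf10b encodes the mouse receptor for the death ligand TRAIL, also called DR5 or KILLER. It measured 3.91 and 6.92 FPKM in control libraries 1 and 2, and 13.7 and 10.6 FPKM in PROM1 libraries 1 and 2. The groups did not overlap, but the control libraries differed from each other by 1.77-fold and the PROM1 libraries by 1.30-fold. The ratio of means was 2.24 and the log2 change 1.07 ± 0.32 (SE). Same-numbered libraries differed by 3.51-fold for number 1 and by 1.53-fold for number 2, and the log2 change was 0.72 without control library 1 and 1.41 without control library 2. The authors' deposited table has it 2.07-fold higher (q = 0.431).

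At the mitochondrion, Bbc3 encodes PUMA, a BH3-only protein that frees and activates BAX, and Bax encodes the pore-forming effector itself. Bbc3 measured 4.47 and 5.55 FPKM without PROM1 and 8.48 and 7.69 FPKM with it. The groups did not overlap, and the means differed by 1.61-fold, a log2 change of 0.60 ± 0.24 (SE). The one Bbc3 transcript listed here is among 6 curated RefSeq transcripts of the gene in the later annotation, that of Pidd1 is 1 of 4 and those of Aen are 2 of 4, so the values of these 3 genes may not cover all their transcripts.

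Bax values were 33.5 and 65.9 FPKM for control libraries 1 and 2, and 78.2 and 54.8 FPKM for PROM1 libraries 1 and 2. The groups overlapped, since control library 2 was above PROM1 library 2. The ratio of means was 1.34 and the log2 change 0.47 ± 0.37 (SE). Library number 1 gave a ratio of 2.33 and number 2 a ratio of 0.832, and the change went from 0.95 without control library 2 to -0.0089 without control library 1, so control library 1 decides its direction. In the GENCODE annotation of GRCm38, 192 of the 867 bases of this Bax transcript are shared with the gene model Gm45808 on the same strand, so reads there cannot be assigned to 1 of the 2.

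Perp encodes a tetraspan membrane protein that takes part in p53-dependent death and, in epithelia, in desmosomes. The control libraries had 2.83 and 4.38 FPKM of Perp and the PROM1 libraries 4.27 and 5.83 FPKM. Control library 2 was just above PROM1 library 1, so the groups overlapped. The means differed by 1.40-fold, with a log2 change of 0.40 ± 0.31 (SE). Leaving out single libraries gave 0.16 without control library 1, 0.22 without PROM1 library 2, 0.59 without PROM1 library 1 and 0.65 without control library 2. Perp relatives did not share one direction. Pmp22, the peripheral myelin tetraspan protein, measured 44.9 and 28.8 FPKM without PROM1 and 18.8 and 20.7 FPKM with it, and Emp3 0.542 and 2.26 FPKM without and 5.60 and 0.320 FPKM with PROM1.

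**Figure D2:**
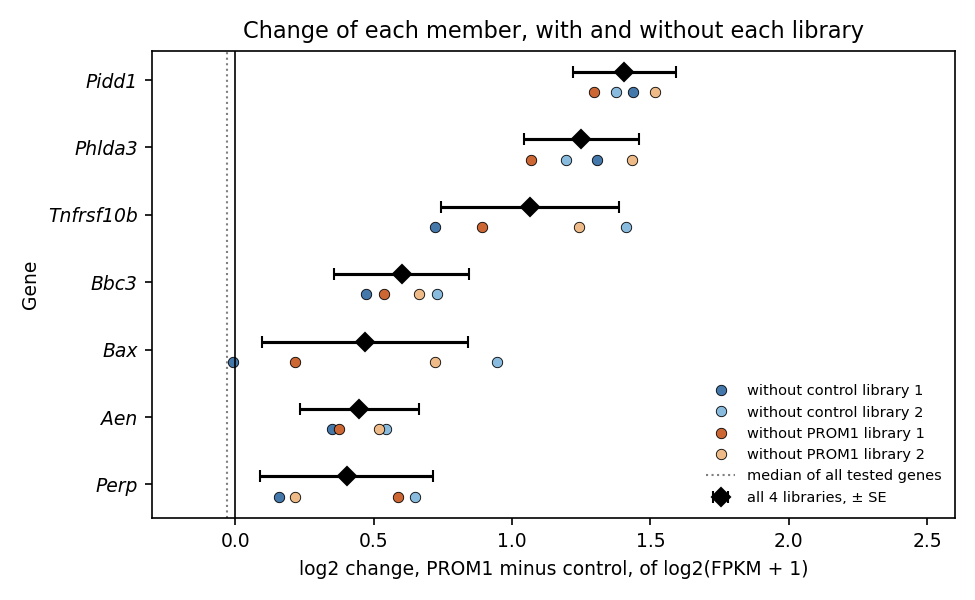
Change in log2(FPKM + 1), PROM1 minus control, for each gene (rows). Diamonds with bars give the value from all 4 libraries ± SE, coloured circles the value without each library, and the dotted line the median of all tested genes. Pidd1 and Phlda3 stay between 1.07 and 1.52 without any one library, while Bax runs from -0.0089 to 0.95.

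Aen encodes a nuclease of the ISG20 family that degrades DNA and RNA after p53 is activated, and its 2 listed transcripts had changes of opposite sign. The shorter transcript (NM_001162939) was estimated at 5.74 and 0.000725 FPKM for control libraries 1 and 2 and 16.1 and 3.84 FPKM for PROM1 libraries 1 and 2. The longer one (NM_026531) was estimated at 4.42 and 11.8 FPKM for the controls, and 0.000704 and 10.6 FPKM for PROM1. The share of the shorter transcript thus ran from 0.00616% in control library 2 through 26.5% in PROM1 library 2 and 56.5% in control library 1 to 99.996% in PROM1 library 1, with no split between the groups. In the authors' deposited table the shorter was 3.87-fold higher (q = 0.865) and the longer 3.81-fold lower (q = 0.865) after PROM1.

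Added together, the Aen transcripts had totals of 10.2 and 11.8 FPKM for control and 16.1 and 14.5 FPKM for PROM1. These totals depend on the split between the transcripts, which are 2007 and 4956 bases long. The same reads give a higher FPKM when assigned to the shorter one. A comparison of Aen free of the split was not made. With that limit, the summed FPKM did not overlap between groups, the ratio of means was 1.40 and the log2 change 0.45 ± 0.22 (SE). Both transcripts have 4 exons in GENCODE. The shorter lacks the first 114 bases of the second exon, which are coding, and ends 2828 bases earlier in the last exon. Of the 1958 windows of 50 bases, the read length, in the shorter transcript, 45 (2.30%) do not occur in the longer one, so few reads can be assigned to it alone. Of the longer transcript's 4907 windows 61.0% are its own.

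**Figure D3:**
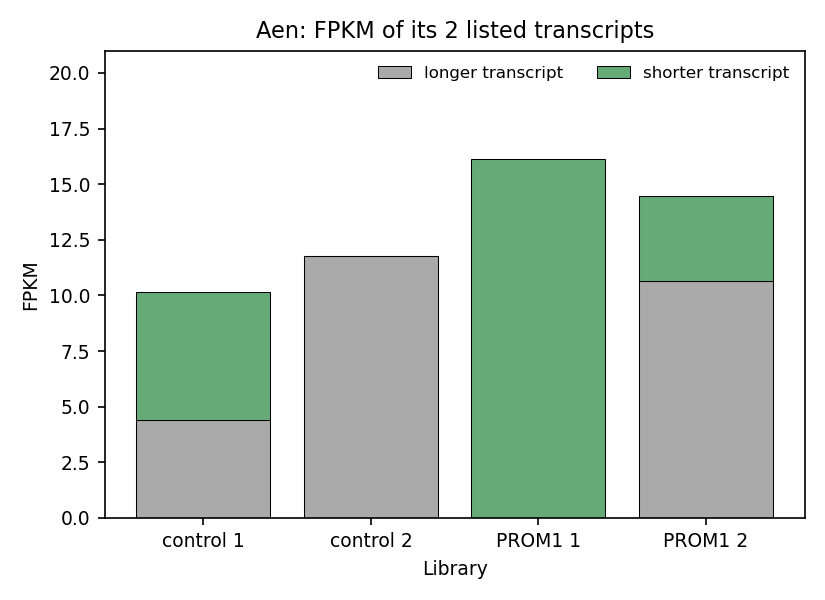
FPKM of the longer (grey) and shorter (green) listed Aen transcript, stacked, in each of the 4 libraries. The make-up changes from library to library, and the totals are 10.2 and 11.8 FPKM (control) and 16.1 and 14.5 FPKM (PROM1). Since the transcripts differ in length, the totals depend on the make-up.

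Across the genes, 6 of the 7 had their highest value in PROM1 library 1, Perp being highest in PROM1 library 2, and 5 of the 7 had their lowest in control library 1. Pidd1 and Phlda3 were lowest in control library 2. The summed level of the 7 genes was 141.5 and 176.1 FPKM in control libraries 1 and 2 and 358.7 and 288.4 FPKM in PROM1 libraries 1 and 2. Pidd1, Phlda3 and Bax made up 83.8% to 88.1% of that sum. The 5 other genes, mean level 5 FPKM or more, whose centred profile over the 4 libraries lay nearest to the mean of the members, out of 6022 such genes, were Nme7, Fat1, Snrpg, 9130401M01Rik and Smad9. Their Euclidean distances on the log2(FPKM + 1) scale ran from 0.0660 for Nme7 to 0.163 for Smad9. Nme7, of the nucleoside diphosphate kinase family, measured 3.13 and 4.30 FPKM without PROM1 and 7.42 and 6.27 FPKM with it.

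The wider pathway was read from 12 lists of textbook genes with 168 members beside the 7, of which 114 were tested with limma on log2(FPKM + 1), the p-values being adjusted over all tested genes. None of the 114 passed an adjusted p of 0.05 (limma), where 0.0198% of all tested genes did, and an unadjusted p under 0.05 (limma) was reached by 7 that were higher and 4 that were lower after PROM1. Over all 10108 tested genes that threshold was reached by 475 (4.70%), of which 236 were higher and 239 lower. By the q-values in the authors' deposited table, none of their 175 transcripts had q under 0.05, the lowest being 0.320. Both PROM1 libraries were above both controls for 28 of the 114 (24.6%) and below for 16 (14.0%), beside 16.5% and 17.5% of all tested genes. The groups overlapped for 6670 of all 10108 tested genes.

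For Trp53 itself the control libraries gave 39.1 and 26.2 FPKM and the PROM1 libraries 58.8 and 41.1 FPKM. Its log2 change, 0.60 ± 0.29 (SE), did not pass. The upper control library was near the lower PROM1 library, but the groups did not overlap. Of the 13 tested genes for p53 and its regulators 5 had both PROM1 libraries above both controls and 0 below, with a median log2 change of 0.10. Among all tested genes 16.5% were above and 17.5% below. In what follows, control values stand before PROM1 values. The ubiquitin ligase gene Rchy1 was at 5.67 and 2.96 FPKM against 4.35 and 12.4 FPKM. Trp53bp2, which directs p53 toward death genes, was at 5.84 and 2.79 FPKM against 6.91 and 6.84 FPKM.

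Other p53 targets of apoptosis had a median log2 change of 0.16 over 13 tested genes, with 3 above both controls, 1 below and 9 overlapping. For all tested genes the shares were 16.5% above and 17.5% below. Ei24, a p53-induced protein of the endoplasmic reticulum, was at 15.3 and 16.7 FPKM against 23.2 and 21.7 FPKM. Siva1, a pro-apoptotic adaptor, was lower, at 1.83 and 4.97 FPKM against 0.936 FPKM and a listed 0. Triap1, an inhibitor of apoptosis, ranged from a listed 0 in PROM1 library 2 to 6.62 FPKM in control library 2. These last are low values with wide gaps inside each group.

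Among 18 tested p53 targets of arrest, repair and feedback the median was 0.51, and 9 had both PROM1 libraries above both controls and 0 below. Of all tested genes 16.5% were above and 17.5% below. Wrap53, for a telomerase and Cajal body protein, was at 2.81 and 0.505 FPKM against 6.46 and 6.38 FPKM. Ckap2, a mitotic spindle gene, was at 1.14 FPKM and a listed 0 against 2.23 and 4.70 FPKM, and Polk, a translesion DNA polymerase, at 2.01 and 3.35 against 6.48 and 7.05 FPKM. Ccng1, cyclin G1, was at 65.6 and 79.8 FPKM against 110.7 and 92.4 FPKM (log2 change 0.48 ± 0.21, SE). Mdm2, the ligase that degrades p53, overlapped between groups, at 3.35 and 6.48 FPKM against 4.44 and 3.51 FPKM. Cdkn1a, the p21 inhibitor of the cell cycle, has no value for PROM1 library 1 and was not fitted. Its main transcript was at 421.5 and 563.5 FPKM without PROM1 and at 619.3 FPKM for PROM1 library 2. The authors' deposited group values for this transcript were 676.3 FPKM for control and 1072.7 FPKM for PROM1 (q = 0.865).

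**Figure D4:**
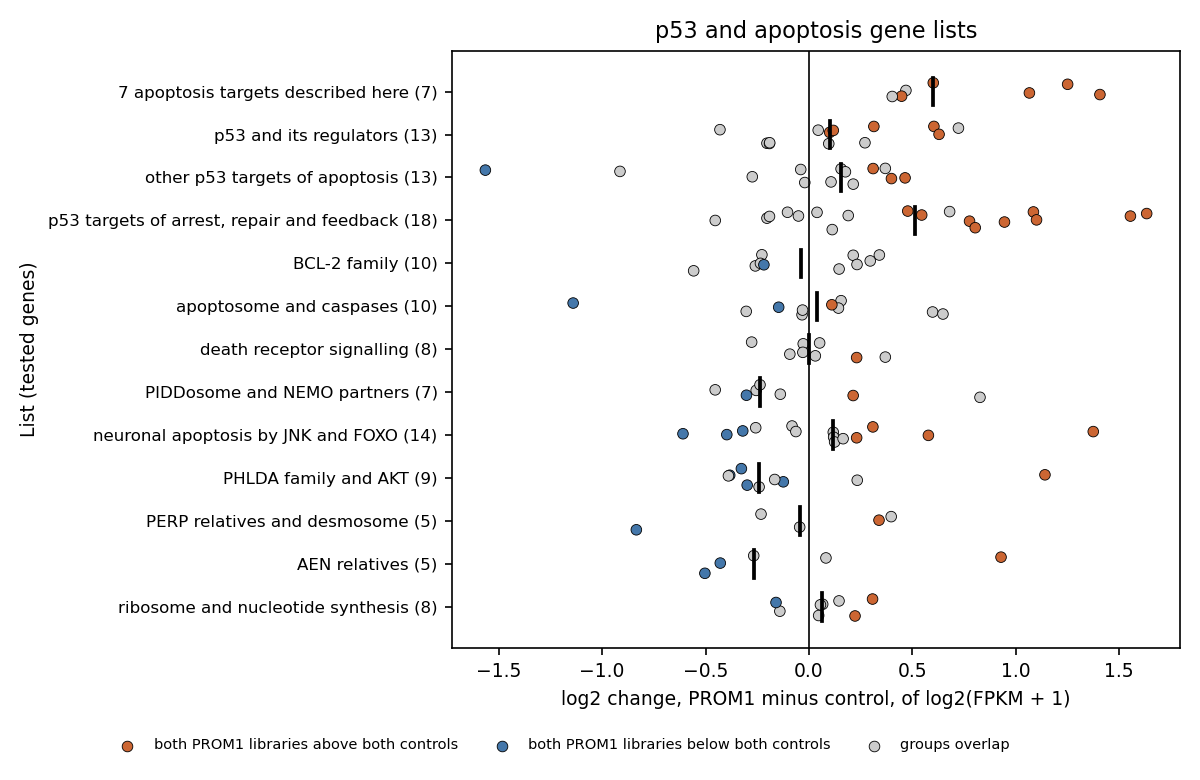
Change in log2(FPKM + 1), PROM1 minus control, of each tested gene in the 7 apoptosis targets and in 12 textbook lists, with the number tested in brackets and a black bar at each median; a gene can be in more than 1 list. Orange marks genes with both PROM1 libraries above both controls, blue both below, grey overlap; the median is 0.60 for the 7 targets, 0.51 for arrest, repair and feedback, and between -0.27 and 0.16 in the other 11 lists.

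Direct partners of the members showed no common direction. For the PIDDosome, the caspase-2 gene Casp2 was under 1 FPKM in every library, with 0.688 and 0.697 FPKM for control and 0.491 and 0.0214 FPKM for PROM1, and was not tested, while Cradd and Ripk1 were not analysed here. The 7 tested PIDDosome and NEMO partners had a median of -0.24, with 1 above both controls and 1 below. Across all tested genes 16.5% were above and 17.5% below. Nfkbia, the NF-κB inhibitor, was at 2.49 and 1.55 FPKM against 2.34 and 7.37 FPKM, Madd, a death-domain adaptor, had a log2 change of -0.45 ± 0.50 (SE) and the kinase gene Chuk of -0.30 ± 0.32 (SE).

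For the TRAIL receptor, the adaptor Fadd was at 2.00 and 1.26 FPKM against 1.41 and 1.47 FPKM, and Tnfsf10 and Casp8 were not analysed here. The median of the 8 tested genes of death receptor signalling was 0.00. Fas had a log2 change of 0.37 ± 0.47 (SE), the adaptor Traf2 of -0.28 ± 0.54 (SE) and Ngfr, the p75 neurotrophin receptor, of 0.23 ± 0.17 (SE), with Ngfr at 284.1 and 260.5 FPKM against 319.3 and 319.4 FPKM.

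In the BCL-2 family, with Bax and Bbc3 not counted, 9 of 10 tested genes overlapped between groups and the median was -0.04. Over all 10108 tested genes 6670 overlapped, and nothing is read from the count for this family. Bak1, the pore-forming relative of Bax, was at 4.09 and 2.65 FPKM against 2.41 and 7.20 FPKM. Of the guardians that hold BAX in check, Bcl2l1 had a log2 change of 0.34 ± 0.29, Bcl2 of 0.15 ± 0.30 and Mcl1 of -0.56 ± 0.37 (SE), and all 3 overlapped. Downstream, the apoptosome and caspase list had a median of 0.04 over 10 genes. Its genes Apaf1 and Casp9 had log2 changes of 0.16 ± 0.34 and -0.30 ± 0.37 (SE). Dffa, the inhibitor of the caspase-activated DNase, was at 8.10 and 12.4 FPKM against 5.14 and 3.08 FPKM, and its log2 change, -1.14 ± 0.33 (SE), did not pass. Xiap, a caspase inhibitor, and Htra2, a mitochondrial protease, had log2 changes of 0.65 ± 0.49 and 0.60 ± 0.48 (SE).

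Around Phlda3, Akt1 overlapped between groups at 88.6 and 83.8 FPKM against 86.1 and 68.3 FPKM. Of the 9 tested genes of the PHLDA and AKT list 4 lay below both controls and 1 above. Over all tested genes 17.5% lay below and 16.5% above, and nothing is read from these counts. Pdpk1, the kinase that activates AKT, was at 7.32 and 2.65 FPKM against 14.7 and 8.41 FPKM. Gsk3b had a log2 change of -0.39 ± 0.30 (SE). Among relatives of Aen, Trex1, a DNA exonuclease, was at 22.8 and 8.34 FPKM against 25.1 and 29.9 FPKM. The changes of Rexo2 and Isg20l2 were -0.50 ± 0.32 and -0.43 ± 0.28 (SE). For the desmosome side of Perp, Pkp4 had a log2 change of 0.34 ± 0.31 (SE).

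Of 14 tested genes for neuronal apoptosis through JNK and FOXO, 4 were above both controls and 3 below, with a median of 0.12. The shares over all tested genes were 16.5% above and 17.5% below. Ddit3, the stress factor CHOP, was at 11.7 and 19.6 FPKM against 36.5 and 45.9 FPKM, and its log2 change, 1.37 ± 0.30 (SE), did not pass. Foxo3 was at 29.3 and 20.4 FPKM against 30.1 and 45.4 FPKM. Egln3, a prolyl hydroxylase, was lower, at 26.3 and 22.8 FPKM against 14.3 and 17.2 FPKM. The 8 tested genes of ribosome and nucleotide synthesis had a median of 0.06, with log2 changes of 0.31 ± 0.20 for Fbl, 0.22 ± 0.21 for Npm1 and -0.16 ± 0.28 (SE) for Dut.

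All 12 neuron markers were listed, and their summed level was 5710 and 6138 FPKM against 5059 and 5785 FPKM, with Nefh at a log2 change of 0.53, Stmn2 at -0.45 and Pou4f1 at -0.37. The 6 glial markers analysed, of 13, summed to 83.4 and 71.4 FPKM against 50.7 and 58.3 FPKM, with Pmp22 at a log2 change of -0.83, Cnp at -0.22 and Mbp at -0.20. Most of the gap between these sums came from Pmp22, at 44.9 and 28.8 FPKM against 18.8 and 20.7 FPKM. Mbp was also below both controls, and the other 4 overlapped between groups. The 6 fibroblast markers analysed, of 11, summed to 5.37 and 5.71 FPKM against 10.2 and 14.9 FPKM, with Col1a1 at 1.36, Col1a2 at 0.91 and Thy1 at 0.49. Of the 4 tested, Col1a1 and Col1a2 were above both controls, while Thy1 and Fbln1 overlapped between groups. For macrophages 2 of 10 markers summed to 3.80 and 3.51 FPKM against 1.79 and 1.99 FPKM, and C1qb had a log2 change of -1.18. The other, Aif1, was at 1.50 FPKM and a listed 0 against 1.45 and 0.821 FPKM and was not tested, so the lower sum rests on C1qb. The 3 cell cycle markers analysed, of 10, summed to 7.11 and 11.8 FPKM against 10.8 and 20.4 FPKM, with Birc5 at 1.39, Pcna at 0.68 and Mcm2 at -0.39. Birc5 was at 0.678 FPKM and a listed 0 against 0.566 and 6.34 FPKM, so its change rests on PROM1 library 2. Birc5 and Pcna overlapped between groups. Among the markers analysed, none was at 0 in all 4 libraries. No epithelial (10) or endothelial (7) marker was analysed here, and nothing is said of the level of any marker not analysed. The fibroblast sum was higher and the glial and macrophage sums were lower in both PROM1 libraries than in either control library, and their part in the values of the 7 genes was not tested.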

How the data were processed

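Polyadenylated RNA over 200 nt from 4 cultures was read as 50 nt single ends, per the labels' protocols. CASAVA, TopHat2 and mm9 appear, with no order, among the submitters' processing notes. The sources used here give neither the annotation nor whether counting used strand. Per the file headers, the authors computed FPKM per library with Cufflinks and 1 FPKM per group, and deposited p-values, q-values, −log10 p-values and log2 ratios of their comparison. The sources used here do not name its tool. The group FPKM are not means of the library FPKM and can lie outside them, as for Phlda3. The ratio column written as a very large score where a group is 0 was not used.

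The FPKM of listed transcripts without a missing value (39 had one) was summed per symbol and tested on log2(FPKM + 1), a scale that understates changes of low genes. The test was limma 3.58.1 under R 4.3.3 with a variance trend and Benjamini-Hochberg adjustment of the p-values over all genes tested. An exact two-sided test of 2 against 2 cannot go below 0.333. Low values showed no steps of whole reads: no log2 ratio between 2 libraries, rounded to 2 decimals, was shared by over 2.26% of transcripts under 0.5 FPKM. Read depth is therefore unknown, and no counting interval is given. Library FPKM summed to between 357805 and 385963, and 89 to 283 transcripts were listed at 0.

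Members and lists were chosen with earlier results of these data known. Named are all members, their direct partners, up to 3 tested genes per list with the largest absolute change (none was called), and the 5 nearest profiles. Some genes that this rule names are not reported here. Sequences are from RefSeq (GRCm38.p6) and transcript structures from GENCODE M21. Alternatives were other pseudocounts, level filters, scalings, variance models and transcript sets, a replicate block, leaving out each library, and the deposited group values.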

Additional observations from a re-analysis of the deposited data

How the results depend on the processing

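A filter at a mean of 5 FPKM gave no value for Perp, and no alternative weighed the Aen transcripts by length. Over 16 alternatives the direction of Pidd1, Phlda3, Tnfrsf10b, Bbc3, Perp and the summed Aen was kept. The exceptions were Bax without control library 1 (-0.0089) and the longer Aen transcript taken alone (-1.28, beside 1.81 for the shorter); the other 110 of 112 values were above 0. Aside from leaving out libraries, Pidd1 lay between 1.33 and 1.47, Phlda3 between 1.17 and 1.28 and Tnfrsf10b between 0.73 and 1.19. Bbc3 was 0.39 with a pseudocount of 5 and 0.44 from the authors' deposited group values. The median of the members was 0.60, 0.83 per transcript, and 0.47 to 0.95 without each library in turn, the last without control library 2.

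Limma called 2 of all genes, 0 per transcript (517 at an unadjusted p under 0.05), 0 on mRNA accessions alone (493 at an unadjusted p under 0.05), and 2 to 15 without each library in turn (5 without control library 2, 4 without PROM1 library 1, 15 without PROM1 library 2), where the lone library is assumed to vary like the other group. The authors' deposited table has 18 with q under 0.05. The cause of these differences was not tested. No gene of the 12 lists was called by limma under any of these settings. With a replicate block the call count stayed at 2; the deviations of same-numbered libraries from their group means had a correlation of 0.14 over genes, and 2 pairs with no label behind the numbers do not show a pairing. With 2 libraries a group, SEs rest on spread borrowed across genes, and the unknown depth limits what can be said of values under about 1 FPKM.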
